A study of Homo sapiens with 18 samples.

Results

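The hnRNP genes described here are 10 genes chosen by name, HNRNPA1, HNRNPA2B1, HNRNPC, HNRNPD, HNRNPF, HNRNPH1, HNRNPK, HNRNPL, HNRNPM and HNRNPU, of 20098 protein-coding genes annotated on GRCh37 (hg19). Each gene was taken with its body and 5 kb on each side, a window of 16.9 kb at HNRNPA1 to 70.4 kb at HNRNPC. DNA-RNA hybrids were mapped with DRIP-seq, in which the S9.6 antibody pulls down hybrid-containing DNA after a restriction digest, in HCT116 cells, a human colorectal carcinoma line. The 3 treatments were untreated cells (labelled Ctrl, here NT) and cells given 10 μM camptothecin (CPT), a poison that traps topoisomerase I on DNA, for 5 or 60 min, with 2 biological replicates each. Each sample gave a DRIP library, a library digested with RNase H before the pull-down, which removes the RNA of hybrids, and an input library that served as the control of peak calling. According to the methods, about 15 min of recovery without drug preceded lysis, so the short treatment is not a 5 min snapshot.

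The hnRNP proteins coat nascent pre-mRNA in the nucleus and take part in splicing, polyadenylation, export and decay of mRNA. Hybrids, also called R loops when the second DNA strand is displaced, form where RNA pairs again with its template, often in the first kilobases of genes with CpG-rich promoters and near gene ends. Topoisomerase I relaxes the supercoils that transcription makes, and its poisons block elongating RNA polymerase II.

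The values of each window are its peaks, the share of its bases under a peak (covered share, in percent) and the percentile of a peak's fold enrichment within its own list, because fold enrichment is not scaled between libraries. The 6 DRIP lists held 30314 to 72879 peaks and replicate 2 always held more than replicate 1, so the members' values are given for each replicate. The RNase H lists of replicate 1 held 473 to 5392 peaks, but those of replicate 2 held 15790 peaks in NT, 50353 at 5 min and 67188 at 60 min. The last 2 stand apart as RNase H controls, so the main counts of genes called higher or lower and of merged regions are also given with every DRIP peak removed that its own RNase H list met. A DRIP peak was met when a peak of that list overlapped it by at least 1 bp, and it was then removed whole. This removal took more peaks from the lists of replicate 2 after CPT than from those of NT, so the filtered counts compare unequally trimmed lists. The lists hold no read counts, so a missing peak is a call below threshold at an unknown depth. DRIP-seq peaks have no strand, and a hybrid of the gene cannot be told apart from that of an overlapping neighbour.

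The 10 windows held 360 DRIP peaks and 173 RNase H peaks. The peaks were wide, with a median of 627 to 1274 bp in the 6 DRIP lists against 464 to 563 bp over all peaks of the same lists. Many began or ended at a cut of the digest. The methods name HindIII (AAGCTT), SspI (AATATT), EcoRI (GAATTC), BsrGI (TGTACA) and XbaI (TCTAGA), whose sites read the same on both strands. Within 2 bp of such a site lay 39.8% to 51.3% of the peak edges in the hnRNP windows per DRIP list, against 26.3% to 33.9% of the edges of all peaks. The sites below are shown because a peak ended there in 5 or 6 of the 6 DRIP lists, so they mark how finely a hybrid can be placed in these genes. Capitals mark the recognition site, 12 bases flank it on each side, and all are on the plus strand of GRCh37.

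HNRNPD, EcoRI, 6 lists, intron, chr4:83292939-83292968: gtccaaagaacaGAATTCagcaaacgaaaa
HNRNPL, BsrGI, 6 lists, intron, chr19:39338100-39338129: ttattttcttgcTGTACAagatgacgcccc
HNRNPA2B1, HindIII, 6 lists, intron, chr7:26232037-26232066: catgatcctaaaAAGCTTttactcctgcag
HNRNPK, HindIII, 6 lists, upstream, chr9:86596421-86596450: ggctcctgtgccAAGCTTtcatgacttcct
HNRNPU, SspI, 5 lists, upstream, chr1:245029030-245029059: aggtggcacaatAATATTgccccattatta
HNRNPM, XbaI, 5 lists, upstream, chr19:8509515-8509544: cttccaggaatcTCTAGAcaggatcattgc
HNRNPF, EcoRI, 5 lists, coding exon, chr10:43882233-43882262: gcccctgttgttGAATTCaagaagagttct

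The HNRNPD site lies 2.19 kb inside the gene and is the gene-side end of the restriction fragment of 3071 bp that holds the start site. In 4 of the 6 DRIP lists the start-site peak was the same interval of 3075 bp, chr4:83292952-83296026, that is, the whole fragment. HNRNPF had the same interval of 4289 bp over its start site in 2 lists, around a fragment of 4287 bp, and HNRNPU one of 2858 bp in 2 lists, around a fragment of 2856 bp. The width of such a peak is that of the fragment and not of the hybrid.

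All 10 genes had a DRIP peak in both lists of NT, of 5 min and of 60 min. Of all protein-coding genes, 45% did in NT, 48.9% at 5 min and 59% at 60 min. The median covered share of the 10 windows was 12.1% and 19.4% in the NT lists, 9.22% and 34.2% at 5 min, and 17.2% and 44% at 60 min. The medians over the 16668 genes with any DRIP peak were 0.617% and 2.29%, 0.877% and 2.80%, and 1.86% and 8.30% in the same order. The highest-ranked peak of a window had a median percentile of 94.3 to 99.5 over the 6 lists, against 70.7 to 89.5 over all genes with a peak. These medians describe the hnRNP genes beside other genes, and carry no test.

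In untreated cells the genes differed widely. HNRNPL, which binds CA-repeat RNA in splicing, was the most covered, with 64.6% and 86.2% of its window in the 2 NT lists. HNRNPA1, a splicing repressor that shuttles between nucleus and cytoplasm, followed HNRNPL with 35.3% and 37.3%, and HNRNPF, which binds G-runs, had 24.9% and 44.1%. HNRNPF and HNRNPA1 overlapped and cannot be ordered. HNRNPH1, a close relative of HNRNPF, had 17.2% and 27.6% and overlapped both HNRNPF and HNRNPM, a splicing regulator with 14.7% and 25.8%.

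HNRNPU, a scaffold protein that binds chromatin and RNA, came next with 8.42% and 13.0% in NT, overlapping HNRNPK, which binds C-rich RNA and DNA, with 8.59% and 12%, and HNRNPD, a regulator of AU-rich mRNA decay, with 9.61% in both. The lowest were HNRNPA2B1, which binds and transports RNA, with 1.90% and 2.42%, and HNRNPC, which packages nascent transcripts, with 1.73% and 2.28%. These 2 lay below the other 8 in both NT lists and did not differ from each other beyond their spread. Their highest-ranked NT peaks were also the lowest, at the percentiles 18.1 and 76.5 for HNRNPA2B1 and 33.1 and 60.3 for HNRNPC, against 86.3 to 99.9 in the other 8 genes.

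**Figure D1:**
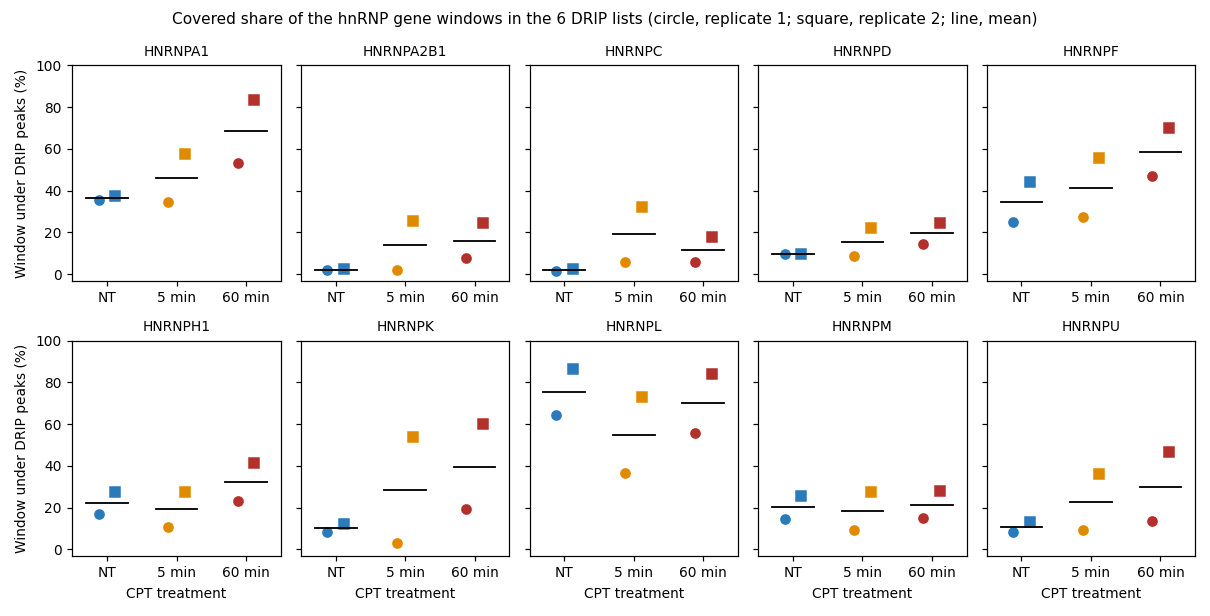
Covered share (percent of the window under DRIP peaks) of each hnRNP gene by treatment; circles are replicate 1, squares replicate 2 and lines the mean of both. Both 60 min points lie above both NT points in 7 genes, while at 5 min only HNRNPC does so, and replicate 2 is the higher point in every CPT pair.

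After 60 min of CPT, 7 of the 10 genes were covered more than in NT in both lists, with no overlap. The same call was made for 29.5% of the 16668 genes with a DRIP peak and 24.4% of all genes, and for none of the 10 in the other direction, where the background was 8% of the genes with a peak. HNRNPA1 had the largest difference, from 35.3% and 37.3% to 53.3% and 83.5%, a difference of the means of 32.1 points. HNRNPK went from 8.59% and 12% to 19.4% and 59.8%, a difference of 29.3 points. All 7 HNRNPK peaks of the first 60 min list were weak, with a −log10 q, the significance value of a peak, of 1.43 to 2.83. The highest-ranked of them lay at the percentile 38.0, against 86.3 and 96.7 in NT. With −log10 q of at least 3 none of these peaks is kept, and 6 of the 10 genes were called higher at 60 min.

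HNRNPF went from 24.9% and 44.1% to 47.1% and 70.0%, a difference of 24.1 points. HNRNPU went from 8.42% and 13.0% to 13.6% and 46.6%, a difference of 19.4 points. The differences were 14.0 points at HNRNPA2B1, which reached 7.95% and 24.3%, 9.97 points at HNRNPD, which reached 14.7% and 24.5%, and 9.77 points at HNRNPC, which reached 5.72% and 17.8%. Without the second 60 min list these differences were 17.0 points at HNRNPA1, 9.11 at HNRNPK, 12.6 at HNRNPF, 2.93 at HNRNPU, 5.78 at HNRNPA2B1, 5.09 at HNRNPD and 3.72 at HNRNPC, and without the first they ranged from 14.9 points at HNRNPD to 49.5 at HNRNPK. That of HNRNPF was 14.4 points without the first NT list.

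The other 3 genes overlapped between NT and 60 min. HNRNPH1 had 23.2% and 41.5% at 60 min, 9.97 points above NT, HNRNPM 14.9% and 28.0%, 1.25 points above, and HNRNPL 55.6% and 84.1%, a difference of -5.52 points. The median difference of the 10 genes was 12 points, beside 1.05 points over all genes with a peak. With 2 lists against 2, the two-sided exact permutation test cannot go below p = 0.333 for any gene, the value of all 7, so these calls rest on non-overlap alone. Leaving out 1 list at a time gave 7 to 9 genes, but this relaxes the rule of non-overlap and can only keep or add calls. With every DRIP list cut to its 30314 highest-ranked peaks, 6 of the 10 genes were higher at 60 min than in NT. When every DRIP peak met by a peak of its own RNase H list was removed, 1 of the 10 genes was higher at 60 min than in NT. The difference then changed sign at HNRNPA1, HNRNPD, HNRNPF and HNRNPU of the 7 genes called, and at HNRNPH1 and HNRNPM of the other 3. The removal was unequal, with 0 of 31 and 4 of 41 hnRNP peaks taken from the NT lists and 0 of 64 and 54 of 79 from the 60 min lists. The filtered count therefore does not by itself measure the change with CPT.

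After 5 min of CPT, HNRNPC was the only gene higher than NT in both lists, with 5.94% and 32.2% against 1.73% and 2.28%, a difference of 17.1 points that was 3.94 points without the second 5 min list and 30.2 points without the first. The call was made for 16.9% of the genes with a peak. None of the 10 was lower, against 17.9% of the genes with a peak. The replicates of 5 min went apart: at HNRNPK the covered share was 3.15% in replicate 1, below both NT lists, and 53.7% in replicate 2, above both. HNRNPU had 9.19% and 36.2%, HNRNPA2B1 2.05% and 25.6%, HNRNPA1 34.3% and 57.3%, HNRNPF 27.4% and 55.5%, and HNRNPD 8.53% and 22.0%. In each of these the first list lay within or below the NT values and the second above both.

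HNRNPH1 had 10.9% and 27.7% at 5 min and HNRNPM 9.24% and 27.7%. HNRNPL had 36.4% and 72.9%, below NT within each replicate number, for a difference of the means of -20.7 points, with the second list inside the NT range. Leaving out 1 list relaxes the call, so it can only keep or add genes. Without the first 5 min list 9 of 10 genes were higher than NT, and without the second NT list 4 were higher. Without the first NT list 1 was lower, and without the second 5 min list 6 were lower. With the RNase H peaks removed as above, 4 genes were lower at 5 min than in NT.

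No gene was higher or lower in both 60 min lists than in both 5 min lists, beside 24.1% of the genes with a peak that were higher at 60 min and 3.74% that were lower. The median difference was 9.28 points, and 2.42 points over all genes with a peak. HNRNPC was the 1 gene of the 10 with a lower mean at 60 min, 11.8% ± 8.55 (SD, n = 2) after 19.1% ± 18.6 at 5 min, and the largest differences were those of HNRNPA1, from 45.8% ± 16.3 to 68.4% ± 21.3, and HNRNPF, from 41.4% to 58.6%. Without the second 5 min list 9 genes were higher at 60 than at 5 min, without the first 60 min list 8 were, without the first 5 min list 2 were lower, and without the second 60 min list 1 was lower.

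Within 1 kb of the canonical start site, 6 of the 10 genes had a peak in both NT lists, namely HNRNPD, HNRNPF, HNRNPH1, HNRNPK, HNRNPL and HNRNPU, where 16% of all protein-coding genes did. At 5 min all 10 genes had one in both lists, beside 15.5% of all genes, and at 60 min 9 did, beside 26.5%, HNRNPC lacking one in replicate 1. The count at 5 min was 10 without either list. With the RNase H-met peaks removed the counts within 1 kb were 5 in NT, 2 at 5 min and 1 at 60 min, so neither CPT treatment then exceeded NT.

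The 4 genes without a start-site peak in both NT lists were HNRNPA1, HNRNPA2B1, HNRNPC and HNRNPM, and these were the 4 of the 10 that were more covered within 1 kb of the start site in both 5 min lists than in both NT lists. The same call was made for 6.7% of the genes with a peak. A gene with little or no NT coverage there and a peak in both 5 min lists receives the call almost by construction, so it adds little to the presence of the peaks. With the RNase H-met peaks removed, 2 of the 10 genes had the call at 5 min and 1 at 60 min. At HNRNPA1 the covered share of this 2 kb zone was 0% in both NT lists, 65.0% and 74.8% at 5 min, and 65.0% and 100% at 60 min. The nearest NT peak inside HNRNPA1 began 1.02 kb from the start site in both lists, whereas the peak over the start site began at -0.299 and -0.495 kb at 5 min and at -0.299 and -1.94 kb at 60 min, that is, upstream. At HNRNPM the zone had 0% and 19.9% in NT, 40.5% and 66.6% at 5 min, and 50.2% and 66.6% at 60 min.

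HNRNPA2B1 had 0% in both NT lists, 20.9% and 26.8% at 5 min, and 24.0% and 48.0% at 60 min, all from peaks that began 0.465 kb inside the gene except a further one upstream in the second 60 min list. In the first 5 min list this was a peak of 417 bp at the percentile 0.92, with a −log10 q of 1.57. With −log10 q of at least 3, 3 of the 10 genes had the start-site call at 5 min. HNRNPC had 0% in both NT lists, 1.90% and 63.4% at 5 min, and 0% and 56.4% at 60 min, so its 5 min call rests on the edge of a peak in replicate 1. At 60 min HNRNPA1, HNRNPA2B1 and HNRNPM were higher than NT, 3 of 10 beside a background of 13.2%, and 5 of 10 were without the first 60 min list.

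**Figure D2:**
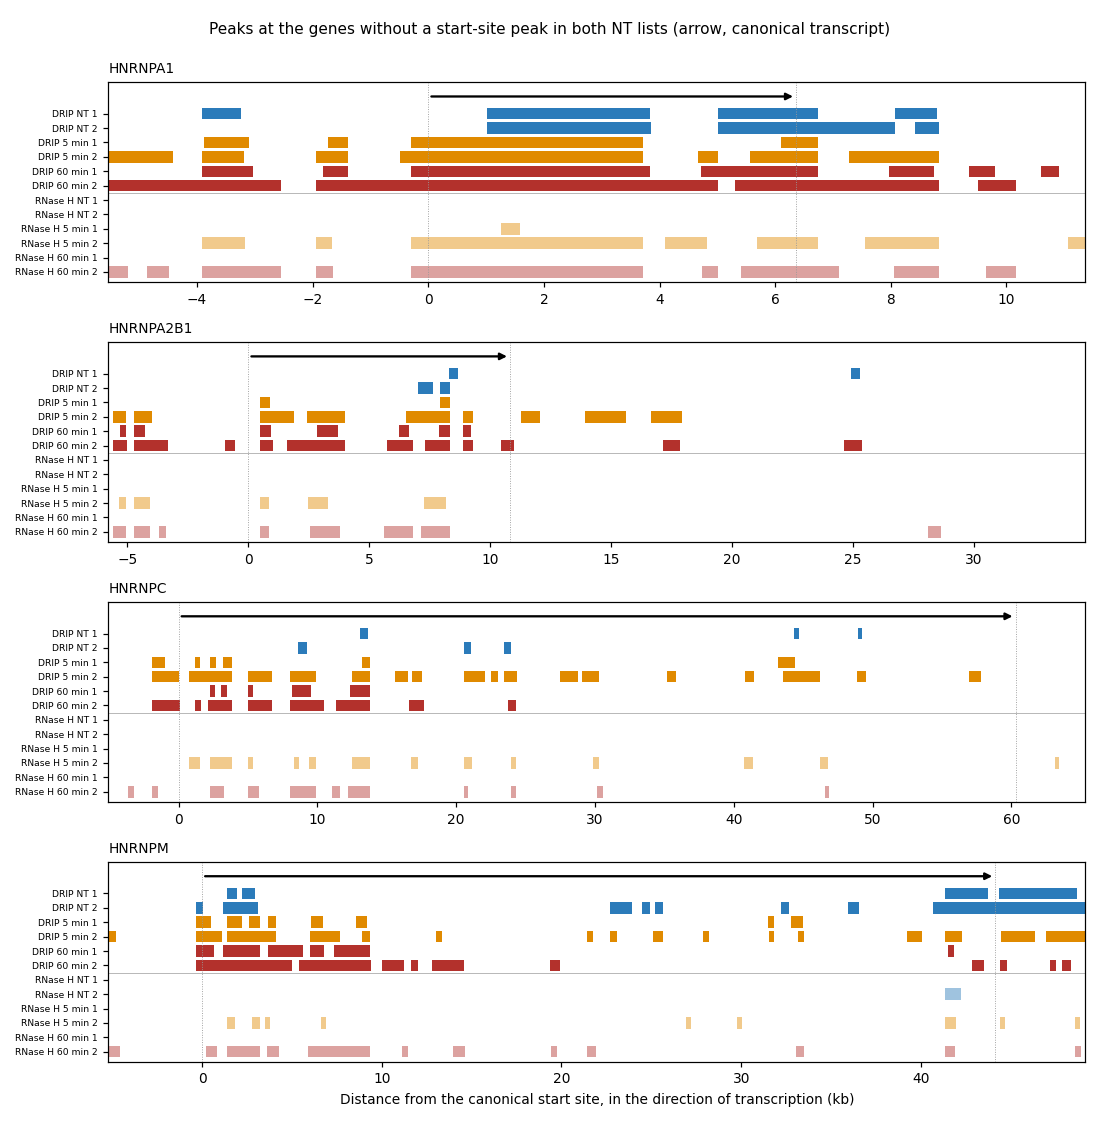
DRIP and RNase H peaks of the 12 lists at the 4 genes without a start-site peak in both NT lists, by distance from the canonical start site in kb; solid bars are DRIP peaks, pale bars RNase H peaks, arrows the canonical transcript. DRIP peaks within 1 kb of the start site appear in the CPT rows, except for HNRNPC at 60 min in replicate 1. In NT they appear only at HNRNPM in replicate 2. The peaks around the end of HNRNPM are widest in the NT rows.

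The 6 genes with start-site peaks in NT kept one in all 6 DRIP lists, but its extent differed. HNRNPD had 94.1% of the zone covered in 5 lists and 100% in the sixth, and HNRNPF 92% in the first 5 min list and 100% in the other 5. In the first 5 min list the zone was less covered than in any NT list at HNRNPK, with 20.2% against 78.9% and 100%, at HNRNPL, with 13.8% against 85.9% and 100%, and at HNRNPU, with 26.6% against 100% in both. In replicate 2 all 3 had 100% in every treatment.

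HNRNPH1 was the only one of the 10 lower at the start site in both 5 min lists, with 43.8% and 61.5% against 86.6% in both NT lists, a call made for 5.84% of the genes with a peak. At 60 min it was back at 77.2% and 86.6%. Its NT peak was the same interval of 2294 bp in both lists, from -0.732 to 1.56 kb around the start site, whereas the peak of the second 5 min list reached from -0.229 to 3.66 kb.

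**Figure D3:**
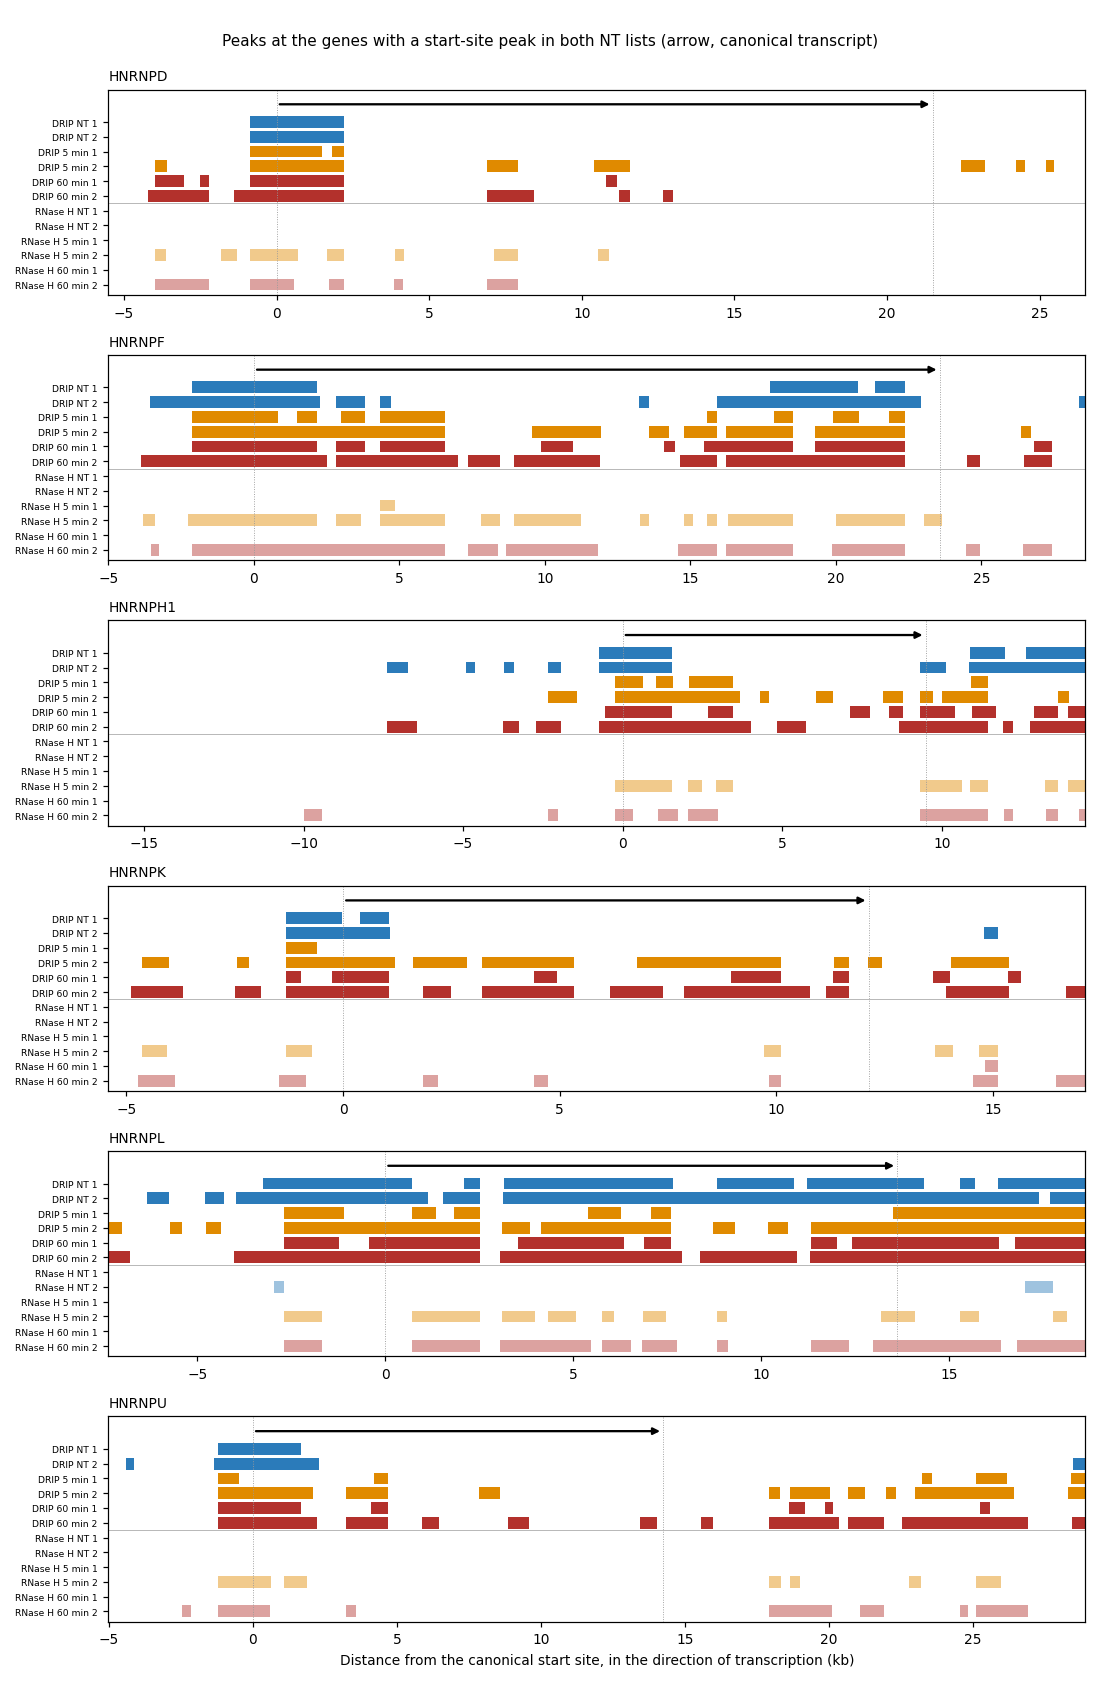
The same map for the 6 genes with a start-site peak in both NT lists, in kb from the canonical start site, with DRIP peaks solid, RNase H peaks pale and the canonical transcript as an arrow. A peak covers or flanks the start site in all 6 DRIP rows of each gene, and the peak at the HNRNPD start site has the same ends in 4 of them.

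Near the canonical end site, within 1 kb, 3 of the 10 genes had a peak in both NT lists, HNRNPA1, HNRNPL and HNRNPM, beside 14.2% of all genes. At 5 min 2 did, beside 7.49%, and at 60 min 4 did, beside 14.5%. HNRNPA1 and HNRNPM were lower at the end site in both 5 min lists than in both NT lists, 2 of 10 beside a background of 9.76% of the genes with a peak. HNRNPA1 had 69.4% and 100% in NT, 32.4% and 63.6% at 5 min, and 69.4% and 100% again at 60 min. HNRNPM had 70.1% and 100% in NT, 0% and 35.2% at 5 min, and 0% and 37.3% at 60 min, the 1 gene of the 10 lower at 60 min, beside 6.01%. At 60 min HNRNPH1 and HNRNPK were higher at the end site than in NT, 2 of 10 beside 5.53%. HNRNPH1 had 0% and 40.95% in NT, 0% and 59.8% at 5 min, and 70.6% and 92.25% at 60 min. HNRNPK had 0% in both NT lists, 0% and 33.7% at 5 min, and 17.7% and 26.1% at 60 min. With the RNase H-met peaks removed, 1 gene was lower at 5 min, 1 was higher at 60 min and 0 were lower at 60 min. Without the first 5 min list 4 genes were higher at 5 min than in NT, without the first 60 min list 4 were higher at 60 min, and without the first NT list 2 were lower at 60 min.

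**Figure D4:**
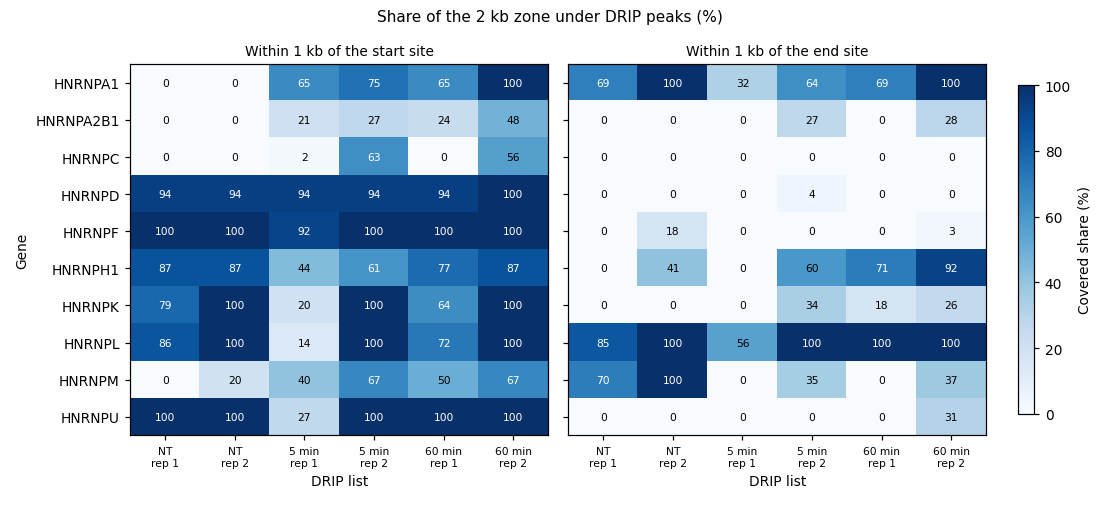
Covered share, in percent, of the 2 kb zones around the canonical start site (left) and end site (right) for the 10 genes (rows) in the 6 DRIP lists (columns); darker cells are more covered and the numbers are rounded. The start-site cells of HNRNPA1, HNRNPA2B1 and HNRNPC are 0 in both NT columns, and the end-site cells of HNRNPM are highest there.

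HNRNPM joined both patterns. Over the 5′ part of its window, from 5 kb upstream to the middle of the canonical transcript, the covered share was 4.45% and 8.65% in NT, 14.7% and 26.5% at 5 min, and 28.7% and 49.2% at 60 min. Over the 3′ part, the rest of the window, it was 24.8% and 43.2% in NT, 3.81% and 28.4% at 5 min, and 1.26% and 7.11% at 60 min. NT and 60 min did not overlap in either part, while at 5 min the 3′ part of replicate 2 lay within the NT range. The whole window had nearly the same covered share at NT and 60 min, 20.2% and 21.5% on average, so the parts differed in opposite directions. HNRNPM was the only one of the 10 with this pattern at 60 min, which 3.68% of the genes with a peak showed, and without the second NT list 2 genes had it. With the RNase H peaks removed none had it. No gene of the 10 showed it at 5 min against NT, where the background was 1.18%, though without the first NT list, or without the second 5 min list, 2 did. None showed it at 60 against 5 min either, beside 1.66%.

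The highest-ranked peak of HNRNPM moved accordingly. In NT it lay 41.4 to 43.7 kb from the start site in replicate 1, in an intron, and 40.7 to 50.1 kb in replicate 2, across the gene end, at the percentiles 90.8 and 97.5. At 5 min it lay 3.68 to 4.12 kb and 1.39 to 4.09 kb inside the gene, at the percentiles 95.7 and 98.6. At 60 min it lay 7.37 to 9.35 kb inside in replicate 1 and from -0.331 to 5.01 kb in replicate 2, at the percentiles 93.9 and 95.3. The peaks past the end of HNRNPM overlap PRAM1, so they cannot be given to HNRNPM alone.

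HNRNPA1 showed the same change of place without the loss at 60 min. Its highest-ranked peak lay 5.01 to 6.75 kb and 5.01 to 8.08 kb from the start site in the NT lists, over the gene end, at the percentiles 94.3 and 98.4. In the 5 min lists it began at -0.299 and -0.495 kb and ended 3.72 kb inside, at the percentiles 95.5 and 99.97. In the 60 min lists it lay from -0.299 to 3.83 kb and from -1.94 to 5.01 kb, at the percentiles 99.7 and 99.9. HNRNPU and HNRNPD, in contrast, had their highest-ranked peak over the start site or within 1 kb of it in all 6 lists, and HNRNPH1 did too.

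Peaks of both replicates of a treatment that overlapped were merged, and then merged across treatments, which gave 38 regions in the 10 windows of 28514 on chromosomes 1 to 22 and X. Both lists of a treatment needed a peak for a region to count as present, and neither could have one for it to count as absent; any other state left it unassigned. Of the 38 regions, 18 stayed unassigned and 13 were present in all 3 treatments, beside 52.3% and 13% of all regions. Stable gains, absent in NT and present at 5 and 60 min, were 4 regions, beside 5.33% of all. They lay 0.465 to 4.01 kb inside HNRNPA2B1, 0.748 to 3.84 kb inside HNRNPC, 3.24 to 4.69 kb inside HNRNPU, and 22.5 to 26.9 kb past the start site of HNRNPU, over the COX20 gene on the other strand. In the first 5 min list the HNRNPA2B1 region rested on 1 peak, at the percentile 0.92.

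The 2 transient gains, present at 5 min alone, lay 31.5 to 31.9 kb and 32.8 to 33.5 kb inside HNRNPM, beside 4.5% of all regions. Both were narrow, 345 and 717 bp, and the first ranked at the percentiles 5.14 and 29.5 in the 5 min lists. The 1 late gain, present at 60 min alone, lay 9.36 to 10.2 kb past the start site of HNRNPA1, beyond its end, beside 14.6% of all regions. No region of the 38 met the rule for a loss, beside stable losses of 7.87%, transient losses of 1.53% and late losses of 0.831% of all regions. These counts turned on the rule and on the lists. Where a treatment counted as lacking a region when 1 replicate had no peak, there were 7 stable, 4 transient and 14 late gains, no losses and 0 unassigned regions. Without replicate 1 there were 29 stable, 26 transient and 15 late gains with 7 stable, 2 transient and 5 late losses, and without replicate 2 there were 14, 5 and 25 gains with 5, 3 and 2 losses. With the RNase H-met peaks removed, 20 regions were formed, of which 17 were unassigned, 3 were transient gains and 0 were stable gains, late gains or losses. Presence follows any peak, so a region such as the one at the end of HNRNPM counts as present in all 3 treatments whatever its width.

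The RNase H lists showed how far the DRIP peaks of these genes met peaks that were left after digestion. In replicate 1, none of the 31 hnRNP DRIP peaks of NT was met, 4.26% of 47 were at 5 min and none of 64 was at 60 min. In replicate 2, 9.76% of 41 were met in NT, 55.1% of 98 at 5 min and 68.4% of 79 at 60 min. The shares over all DRIP peaks of these last 3 lists were 10.8%, 33.0% and 49.0%. The part of incomplete digestion, antibody background or peak threshold in this was not tested.

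The windows were covered more in the DRIP than in the RNase H list in 6 of 6 pairs at each of the 10 genes. The two-sided exact sign-flip permutation test gave p = 0.03125 for each, the smallest that 6 pairs allow. Of the 17284 genes with a peak in any list, 29.1% had a p below the threshold of 0.05 with DRIP higher. Only a gene higher in DRIP in all 6 pairs can pass, so a gene that lacks a peak in 1 DRIP list cannot. All 10 genes had a peak in every DRIP list, and the RNase H lists of replicate 1 were nearly empty there. The 10 of 10 therefore adds little to the presence of the DRIP peaks. After Benjamini-Hochberg adjustment over all genes p was 0.107, and 0% of the genes passed. All genes at the smallest p share the same adjusted value, so the adjustment could not single out any gene. HNRNPL had the largest difference, 66.6% in DRIP and 14.0% in RNase H on average, 52.6 ± 18.9 points (SD, n = 6 pairs). The 6 pairs are 3 treatments with 2 replicates each, so test and SD take treatments and replicates together. HNRNPA1 differed by 32.1 ± 15 points and HNRNPF by 25.7 ± 17.7 points. The smallest differences were 6.96 ± 6.31 points at HNRNPA2B1 and 7.04 ± 6.82 points at HNRNPC. When the lists of a pair were cut to equal length, 2 of the 10 genes were higher in DRIP by this test. The cut left 473 peaks in NT replicate 1. HNRNPA1, HNRNPA2B1, HNRNPC, HNRNPD, HNRNPK, HNRNPL and HNRNPM then had no coverage in either list of that pair. HNRNPU had none in the pair of 5 min replicate 1. A gene with an empty pair cannot go below 0.05 in this test, so the lower count does not measure the DRIP excess.

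In replicate 2 after CPT, RNase H peaks lay at many of the places of the DRIP peaks. At HNRNPA1 they covered 49.7% of the window at 5 min and 57.2% at 60 min, where DRIP peaks covered 57.3% and 83.5%, and the start-site zone had 65.0% in both RNase H lists. At HNRNPF they covered 50.9% and 62.1% beside 55.5% and 70.0% in DRIP. HNRNPK differed from these, with 10.6% and 16.1% in RNase H beside 53.7% and 59.8% in DRIP. In replicate 1 the RNase H covered share was 0% at 27 of the 30 combinations of gene and treatment, and its highest value was 1.98%, at HNRNPA1 at 5 min.

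**Figure D5:**
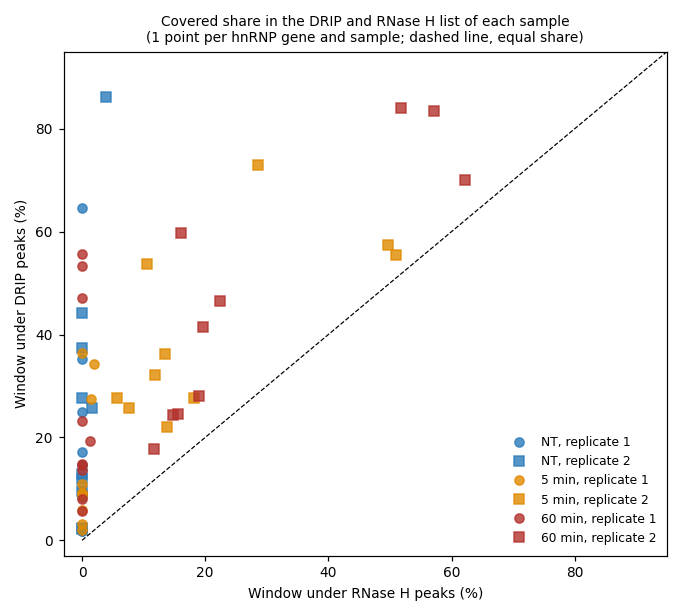
Covered share of each hnRNP window in the DRIP list (vertical, percent) against the RNase H list (horizontal, percent) of the same sample; colours are treatments, circles replicate 1 and squares replicate 2, and the dashed line marks equal shares. Every point lies above the line, and the points beyond 5% on the horizontal axis are all of replicate 2 after CPT.

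Of 17 other hnRNP and related RNA-binding genes examined, 10 were higher at 60 min than in NT without overlap, beside the 29.5% of the genes with a peak, and none was lower without overlap. The mean was lower at 60 min in 2 of the 17, PTBP1 (-5.66 points) and HNRNPUL2 (-2.78 points), named after their values were seen. The largest differences were those of PCBP1, a poly(C)-binding protein, with 46.1 points (35.7 in replicate 1 and 56.4 in replicate 2), HNRNPA3, a relative of HNRNPA1, with 36.2 points (16.1 and 56.2), HNRNPDL, a relative of HNRNPD, with 35.2 points (5.55 and 64.9), and HNRNPH2, a relative of HNRNPH1, with 21.3 points (11.7 and 30.9) from no coverage in NT. At 5 min 3 of the 17 were higher than NT and 1 was lower, beside 16.9% and 17.9% of the genes with a peak. Without the first 5 min list 15 were higher and without the second NT list 10 were, while without the second 5 min list 6 were lower and without the first NT list 2 were. At 60 min 2 were lower without the first NT list or without the second 60 min list. With the RNase H-met peaks removed, 4 of the 17 were higher at 60 min, and at 5 min 1 was higher and 4 were lower. The median difference of the 17 genes was 13.4 points at 60 min and 5.08 points at 5 min, beside 12 and 8.21 points in the 10 genes.

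The 10 genes shared some features of their start sites that the choice by name did not use. The first kilobase of the canonical transcript had a CpG observed over expected ratio of 0.774 to 0.989, above the median of all genes, 0.634, in 10 of 10. The GC content was above the median of 58% in 7 of 10, and the GC skew (G minus C over G plus C on the coding strand) above its median of 0.0455 in 7 of 10. The exceptions for GC content were HNRNPA1 with 48.8%, HNRNPA2B1 with 57.1% and HNRNPC with 45%, which are 3 of the 4 genes without a start-site peak in both NT lists. HNRNPM, the other one of the 4, had the second-highest GC content of the 10, 69%, but a GC skew of 0.0145, and HNRNPA1 had the lowest skew, -0.0451. HNRNPA2B1 and HNRNPC had skews of 0.0893 and 0.147, above the median. Of the 6 genes with a start-site peak in NT, 5 had a skew of 0.159 to 0.232, and HNRNPD had 0.0395. The canonical transcripts had a median length of 13.9 kb, beside 22.7 kb for all genes. The lengths ranged from 6.36 kb at HNRNPA1 to 60.3 kb at HNRNPC.

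Several windows hold parts of other genes. All 29 DRIP peaks in the HNRNPA1 window overlapped another annotated gene, 28 of them ENSG00000258344, 10 SCAT2 and 10 CBX5, which starts upstream in the opposite direction. Of 33 peaks at HNRNPU, 15 overlapped COX20, and of 31 at HNRNPK, 10 overlapped RMI1, which also starts upstream in the opposite direction, and 6 overlapped HNRNPK-AS1. Of 20 peaks at HNRNPD, 10 overlapped HNRNPD-DT, and the intervals that cover its start site are among them. At HNRNPH1 5 of 38 overlapped RUFY1 and at HNRNPM 7 of 54 overlapped PRAM1. At HNRNPL 14 of 40 overlapped ENSG00000268083 and 6 overlapped ECH1, and at HNRNPA2B1 7 of 33 overlapped CBX3 and 5 overlapped NFE2L3. None of the 42 peaks at HNRNPC or the 40 at HNRNPF overlapped another annotated gene. HNRNPA1, HNRNPC and other members have processed pseudogenes elsewhere in the genome, and how reads that map to both were treated is not given in the sources used here.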

How the data were processed

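DRIP-seq, RNase H-digested DRIP-seq and input libraries of HCT116 cells were compared by treatment and replicate as labelled. The 10 genes, the 17 further genes and the measures were chosen with earlier results of these data known. Per the methods and the submitters' notes, the authors trimmed reads of 75 + 75 bp with Cutadapt, used BWA for alignment to hg19 and to a yeast spike-in, took out duplicates and the ENCODE blacklist (SAMtools, Picard) and ran MACS2 on every library with the matching input as control; versions and threshold are not given in the sources used here. Each deposited peak has a fold enrichment (a ratio over input at its summit), a −log10 p and a −log10 q, and the deposited display score went unused. The lowest −log10 q per list was 1.30 to 1.31. Read counts and spike-in factors are not part of the peak lists, so the depth behind a value is unknown, no interval was computed, and the authors' limma test of counts was not run.

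Genes and canonical transcripts were those of GENCODE release 44 lifted to GRCh37; all peaks lay within its chromosome lengths. A peak counted in a window with an overlap of at least 1 bp. A gene was called higher where both lists of one treatment lay above both of the other; a two-sided exact permutation test was added. DRIP and RNase H lists were compared by the exact sign-flip test over 6 pairs with Benjamini-Hochberg adjustment over all genes with a peak. All 10 genes passed the requirement of a peak in at least 1 list. The start-site, end-site and window-part measures were added after seeing the data. Replicates share only a number in the labels. Alternatives were a −log10 q minimum of 3, equal list lengths, other flanks, a start-site distance of 0.5 kb and a peak overlap of 50%. Further alternatives were removal of peaks met by RNase H peaks, other measures, replicate blocks and leaving out each library. Named genes were all 10 members and, of the 17, the 4 with the largest difference between 60 min and NT; the main neighbours that peaks overlap are also named, and genes named after their values were seen are marked. Python 3.11.15, NumPy 2.4.6, pandas 2.3.3 and Matplotlib 3.10.9 were used, and the functions were tested on simulated lists.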

Additional observations from a re-analysis of the deposited data

How the results depend on the processing

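Of 300 values of single genes under alternatives, 283 moved by less than the spread between replicates, 13 moved by more and 4 were called differences that changed sign; 40 differences that were not called also changed sign. The 4 were differences between 60 min and NT with the RNase H-met peaks removed: -9.67 points at HNRNPA1, -1.17 at HNRNPD, -11.0 at HNRNPF and -0.44 at HNRNPU. Of 230 counts and shares, 164 were within 1.5 times their value or within the spread and 66 were not. The cause was not tested for any of them.

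With the RNase H-met peaks removed, genes higher at 60 min than in NT fell to 1, genes lower at 5 min than in NT were 4 and genes lower at 60 than at 5 min were 1. Start-site peaks in both lists were then found in 5 genes in NT, 2 at 5 min and 1 at 60 min. Start-site calls against NT were then made in 2 genes at 5 min and 1 at 60 min. The 5′-high, 3′-low pattern was then found in 1 gene at 5 min against NT and 0 at 60 min. At the end site 1 gene was then lower at 5 min, 1 higher at 60 min and 0 lower at 60 min than in NT, of the 17 other genes 1 was higher and 4 lower at 5 min and 4 higher at 60 min, and 20 regions were formed. By the percentile of the highest peak, the genes higher were 2 at 5 min and 4 at 60 min against NT and 2 at 60 against 5 min, and those lower were 1 at 5 min against NT and 1 at 60 against 5 min. By the number of peaks, 5 genes were higher at 5 min than in NT. Without flanks, 2 genes were higher at 5 min than in NT and 1 at 60 than at 5 min, and with flanks of 1 kb, 1 was lower at 5 min than in NT and 1 higher at 60 than at 5 min. The 5′-high, 3′-low pattern appeared in 1 gene at 5 min against NT with −log10 q of at least 3 or with equal list lengths, and in 1 gene at 60 against 5 min with equal list lengths. With equal list lengths within pairs, 2 genes were higher in DRIP than in RNase H, where empty pairs kept the other genes from passing.

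With 1 library left out, the counts ranged from 1 to 9 (higher, 5 min against NT), 0 to 6 (lower, 5 min against NT), 7 to 9 (higher, 60 min against NT), 0 to 1 (lower, 60 min against NT), 0 to 9 (higher, 60 against 5 min) and 0 to 2 (lower, 60 against 5 min). These calls rest on non-overlap of the lists, so leaving out a library can keep or add calls but cannot remove any. The 5′-high, 3′-low pattern ranged from 0 to 2 genes at 5 min and 1 to 2 at 60 min against NT, and 0 to 1 at 60 against 5 min. Genes higher at the start site at 60 min than in NT ranged from 3 to 5. At the end site, genes higher than NT ranged from 0 to 4 at 5 min and 2 to 4 at 60 min, and genes lower from 2 to 3 and 1 to 2. Of the 17 other genes, 3 to 15 were higher and 1 to 6 lower at 5 min, and 10 to 15 higher and 0 to 2 lower at 60 min. Leaving out a whole replicate gave 70 to 103 merged regions, since 1 list per treatment then makes a region, and met shares of 1.42% to 44.4% around the mean of 22.9%.

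Replicate numbers are shared by all treatments but nothing states what they pair. The differences of replicate 2 from replicate 1 correlated at r = 0.559 (NT and 5 min), 0.535 (NT and 60 min) and 0.656 (5 and 60 min) across 16668 genes, which are not independent replicates. With the replicate block, a gene counted where both same-numbered pairs went one way: 4 genes were then higher and 1 lower at 5 min than in NT, 9 higher and 1 lower at 60 min than in NT, and 8 higher and 1 lower at 60 than at 5 min. Over all genes with a peak these shares were 24.9% and 30.2%, 45% and 17%, and 53.5% and 6.11%. The pattern of HNRNPM was found with the block in 3 genes at 5 min against NT and 1 at 60 against 5 min. With no replicate block, 6 genes were higher in DRIP than in RNase H by the exact permutation test.

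The lists limit what can be said: peaks below the threshold are unseen, and the permutation test of 2 lists per treatment allows no p below 0.333. Replicate 2 lists were longer in every treatment, and within each replicate the DRIP lists were longest at 60 min. In replicate 2, 2 of the 3 RNase H lists met 55.1% and 68.4% of the DRIP peaks in these genes.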
